A study of Mus musculus with 42 samples.

Results

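The genes described here encode subunits of the mitochondrial respiratory chain and ATP synthase, together with assembly factors of complex I. The rule uses names and biotype and takes the protein-coding genes of the GENCODE M21 annotation whose symbols begin with mt-, Uqcr, Atp5, Nduf followed by a, b, c, s or v, or Cox followed by a digit from 4 to 8, plus Sdha, Sdhb, Sdhc and Sdhd. Of 44674 genes in the deposited table, 106 met this rule, 93 of them in the nuclear genome and 13 in the mitochondrial genome. The table held 21420 protein-coding genes in all.

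The respiratory chain passes electrons through complexes I to IV of the inner mitochondrial membrane while pumping protons, and complex V, the ATP synthase, uses the returning protons to make ATP. Complexes I, III, IV and V combine proteins of both genomes, whereas complex II is wholly nuclear encoded. Nuclear mRNAs are translated on cytosolic ribosomes, of which S6 is a protein of the small subunit, whereas the mitochondrially encoded mRNAs are translated inside the organelle on ribosomes that hold no S6.

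Main olfactory epithelium was taken from male C57BL/6NCrl mice, 8 to 12 weeks old, after 1 h of odour exposure. The groups were no odour (5 pools), the odour of NCD, the normal chow (6 pools), the odour of BFD, a bacon-flavoured diet (5 pools), and the odour of HFD, a lard-based high-fat diet (5 pools). Each pool held 4 epithelia and gave an input library and a pulldown library, the latter from RNA captured with an antibody against phosphorylated S6, which in this tissue is used to mark active olfactory sensory neurons. The pools were whole epithelium and therefore mixed cell types, so a lower level of a gene in bulk could mean fewer cells of a type or less RNA per cell, and the data cannot tell these apart.

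The 42 libraries held 24839555 to 36738330 estimated counts. Ribosomal RNA encoded in the nucleus took 12.7% to 22.4% of the counts in inputs without odour but 4.06% to 11.1% in NCD inputs, 1.24% to 7.97% in BFD inputs and 1.05% to 14.3% in HFD inputs. In pulldowns it took 13.3% to 28.1% without odour and 10.5% to 21.5% with an odour. This share, also used as a covariate below, sums genes annotated as ribosomal RNA and a chosen list of genes taken to resemble it. Averaged over all libraries, CT010467.1, annotated as ribosomal RNA, held 7.65% of counts. The protein-coding gene Lars2 held 2.67%, and the noncoding genes AY036118 and Gm42418 held 1.34% and 0.830%. Markers of mature olfactory sensory neurons made up 1.28% to 2.01% of input counts and were detected in every pool.

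Sequences shared between the genomes limit what can be said of single mitochondrially encoded genes. A block of 7 pseudogenes on chromosome 1, from base 24611535 to 24616197 of GRCm38 on the minus strand, copies parts of mt-Co1, mt-Co2, mt-Co3, mt-Atp6, mt-Nd3, mt-Nd4 and mt-Nd4l almost letter for letter. The table gave this block 0.309% of input counts without odour on average, against 1.30% for the 13 mitochondrially encoded genes themselves, so the split of reads between gene and copy is uncertain for those 7 genes. The windows below show how little separates them, with capitals at the single base that differs in mt-Co1 and mt-Nd3, while the first bases of mt-Co2 and its copy are identical.

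mt-Co1, chrM:6390-6479, plus strand: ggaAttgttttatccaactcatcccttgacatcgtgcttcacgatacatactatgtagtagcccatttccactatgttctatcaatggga
Gm29216, chr1:24616099-24616188, minus strand: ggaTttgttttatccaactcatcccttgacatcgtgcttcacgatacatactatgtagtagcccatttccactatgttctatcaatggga
mt-Nd3, chrM:9459-9548, plus strand: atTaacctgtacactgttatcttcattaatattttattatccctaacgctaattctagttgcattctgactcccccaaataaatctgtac
Gm28438, chr1:24613030-24613119, minus strand: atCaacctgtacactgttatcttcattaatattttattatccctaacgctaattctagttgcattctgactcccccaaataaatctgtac
mt-Co2, chrM:7013-7102, plus strand: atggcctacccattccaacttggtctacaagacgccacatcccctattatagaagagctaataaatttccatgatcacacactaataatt
Gm28661, chr1:24615476-24615565, minus strand: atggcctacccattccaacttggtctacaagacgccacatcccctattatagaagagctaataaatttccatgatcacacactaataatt

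Counted from the first base of the mitochondrial gene, the copies carried A1066T in mt-Co1 and T3C in mt-Nd3, and the other 5 copies matched over their whole aligned length. Results for the mitochondrially encoded genes are therefore given mainly for the 13 together and for mt-Nd1, mt-Nd2, mt-Nd5, mt-Nd6, mt-Cytb and mt-Atp8, which have no such copy in the block.

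Nuclear genes of the respiratory chain are known targets of the transcription factor NRF1. RefSeq windows of 300 bases around the start, 250 before and 50 after it on build GRCm38.p6, were found for 74 of the 93 nuclear genes. The core of the NRF1 motif, GCGCA and GCGC with any 1 base between them, stood on either strand in 25.3% of the 79 windows of these genes and in 4.60% of all 32851 windows of the table. The letters CCGGAAGT of an ETS motif stood in 6.33% and 3.89% of them. A match is a description of the letters and shows no binding. The window of Sdhd is printed here because Sdhd had the smallest p-value among nuclear genes in the BFD inputs described further on, with the 1 NRF1 match in capitals. The windows of Ndufv2 and Cox7a2l, the next in that order, held neither string.

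Sdhd, chr9:50603800-50604099, minus strand: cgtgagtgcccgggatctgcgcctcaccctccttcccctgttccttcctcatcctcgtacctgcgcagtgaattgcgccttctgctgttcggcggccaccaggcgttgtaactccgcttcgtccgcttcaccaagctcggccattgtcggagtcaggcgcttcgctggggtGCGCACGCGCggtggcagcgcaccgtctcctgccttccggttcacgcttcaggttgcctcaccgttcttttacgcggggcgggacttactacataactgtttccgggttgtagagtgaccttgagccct

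Of the 93 nuclear genes, 90 had enough counts to be tested, and Cox6a2, Cox7b2 and Cox8c did not. All 13 mitochondrially encoded genes were tested. Levels are compared between genes as CPM (counts scaled to library size) per kilobase of transcript. In inputs without odour the mitochondrially encoded genes had a median of 1027 CPM per kilobase. They ran from 54.8 for mt-Nd3 to 2729 for mt-Co1, the catalytic subunit of complex IV. Both of these genes have a copy on chromosome 1. The values leave out the counts given to the copies, so the median and the order of these genes are uncertain. The nuclear genes had a median of 73.0 and reached 796 in Atp5b, the catalytic beta subunit of ATP synthase. In the pulldowns, again without the counts given to the copies, the medians were 70.6 for the mitochondrially encoded and 87.2 for the nuclear genes. Cox6a1, the widespread form of a complex IV subunit, was highest there at 980.5. Among nuclear genes in inputs, ATP synthase subunits had a median of 174 CPM per kilobase, complex IV 135, complex III 84.2, complex II 81.8, complex I 68.7 and the complex I assembly factors 14.6.

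Some nuclear genes also share sequence with other annotated genes, so that their counts are uncertain. The share of 31-base words found elsewhere was 65.1% for Ndufaf2, all of it with B230220B15Rik, 49.6% for Atp5o and 40.2% for Atp5g2. It was 34.8% for Uqcrb, 34.4% for Ndufb6 and 33.2% for Ndufa13.

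Without odour, the mRNAs of the mitochondrial and nuclear genomes parted between pulldown and input. All 13 mitochondrially encoded genes were lower in the pulldown, with log2 differences from -4.12 to -3.20 and a median of -3.86, a 14.5-fold reduction. All 13 passed an adjusted p of 0.001, where 16.0% of all 21168 genes tested were lower in the pulldown and 19.8% were higher. Adjusted p-values come from quasi-likelihood F tests in edgeR, corrected by the Benjamini-Hochberg method across these genes, and a gene is said to rise or fall only if it passed 0.001.

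mt-Cytb encodes cytochrome b, the only subunit of complex III made in the mitochondrion. In the inputs of pools 1, 2, 3, 4 and 6 it had 1632, 1470, 1731, 1772 and 1344 CPM. In the pulldowns of the same pools it had 71.0, 109, 73.6, 110 and 275 CPM. Every pulldown was far below every input, and the pulldown of pool 6 was above the other 4. The log2 difference of mt-Cytb was -3.84 ± 0.55 (SE, n = 5 pools, adjusted p = 9.76e-06).

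The 7 subunits of complex I encoded in the mitochondrion had a median of -3.71. Among them mt-Nd1, a membrane subunit near the ubiquinone site, fell by 4.11 ± 0.57 on the log2 scale (SE, adjusted p = 7.10e-06), and mt-Nd5, a proton-pumping subunit, showed the smallest difference of the 13 at -3.20 ± 0.48 (adjusted p = 1.67e-05). The 3 subunits of complex IV had a median of -4.04 and the 2 of complex V a median of -4.03, with mt-Atp8 of the ATP synthase at -4.12 ± 0.59 (adjusted p = 9.84e-06). The mitochondrial ribosomal RNAs mt-Rnr1 and mt-Rnr2, which are not members, lay lower still at -5.38 and -5.59.

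Adding the counts of the chromosome 1 copies to their genes left the median of the 13 at -3.84. With the share of nuclear ribosomal RNA per library as a covariate, 1 of the 13 passed the threshold. That share was 13.3% to 28.1% in these pulldowns and 12.7% to 22.4% in these inputs. In each of these pools it was higher in the pulldown than in the input, as in pool 3 with 26.7% and 15.1%. The model has a term for each pool, so it can hardly separate the share from the pulldown. The loss of calls does not show which of them goes with the result, and the part of the share was not tested.

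Of the 90 nuclear genes tested, 28 were higher in the pulldown than in the input without odour and 1 was lower, with a median log2 difference of 0.29 and a range from -0.92 to 1.26. The median over all genes tested was 0.01. These counts stand beside the 19.8% of all genes that were higher and the 16.0% that were lower. At an adjusted p of 0.05, 46 nuclear genes were higher and 11 lower, beside 31% and 28.5% of all genes. Complex IV had 8 of 17 subunits higher with a median of 0.49, and complex I had 11 of 36 higher with a median of 0.34. Complex III had 3 of 8 higher and 1 lower with a median of 0.29, its 1 falling subunit being Uqcrc2, a core protein of the complex. Complex V had 4 of 17 higher with a median of 0.09, the 8 complex I assembly factors had 2 higher with a median of 0.30, and none of the 4 subunits of complex II passed, with a median of -0.13.

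The lowest p-values among nuclear genes belonged to Ndufaf8, an assembly factor of complex I, at 0.92 ± 0.11 (SE, adjusted p = 8.27e-08), Ndufv3, an accessory subunit of its NADH-binding arm, at 0.94 ± 0.11 (adjusted p = 9.73e-08) and Cox6b2, the testis form of a complex IV subunit, at 1.26 ± 0.17 (adjusted p = 3.88e-07). Cox6b2 was low in these libraries, with 2.54, 3.15, 2.09, 2.50 and 2.12 CPM in the inputs and 6.83, 6.07, 6.89, 6.11 and 4.05 CPM in the pulldowns of pools 1, 2, 3, 4 and 6. The pulldowns and inputs of Cox6b2 did not overlap. Uqcrc2 had 87.3, 83.6, 82.7, 99.5 and 82.0 CPM in the inputs and 74.2, 75.7, 73.5, 68.0 and 65.7 CPM in the pulldowns, a fall of 0.28 ± 0.05 on the log2 scale (adjusted p = 7.45e-05), again without overlap. Adding the ribosomal RNA covariate left 5 nuclear genes higher instead of 28, with the same limit as for the mitochondrially encoded genes. Without pool 1 or without pool 3, 17 were higher.

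**Figure D1:**
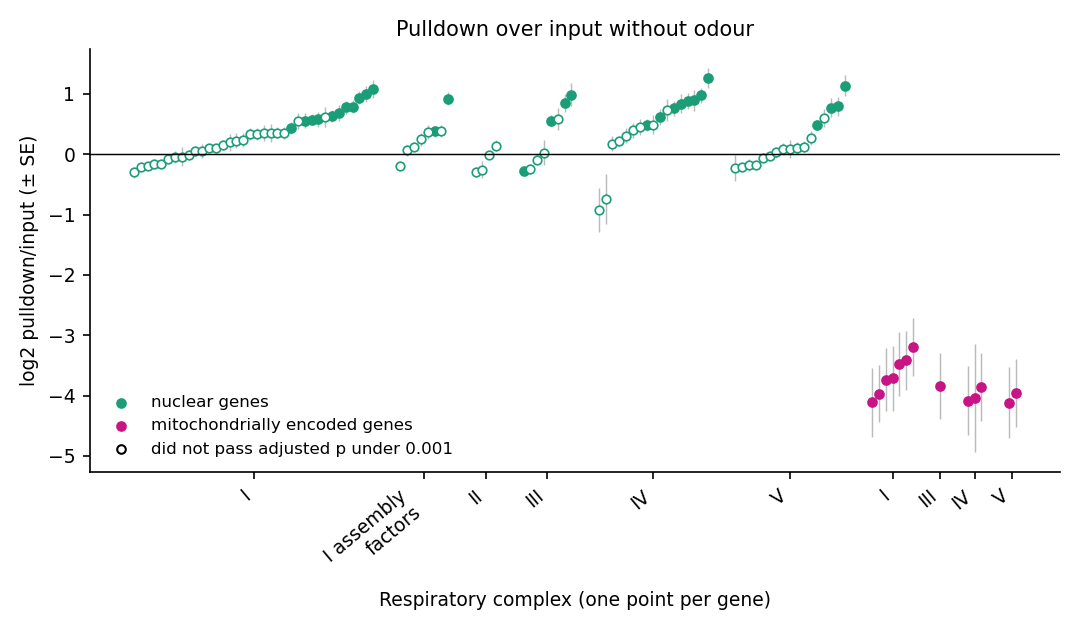
Each point is 1 gene, placed by respiratory complex and genome, and the vertical axis gives the log2 difference between pulldown and input in the 5 pools without odour, with grey bars for its SE. Filled points passed an adjusted p of 0.001. The 13 mitochondrially encoded genes lie between -4.12 and -3.20, below all 90 nuclear genes, which lie between -0.92 and 1.26.

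Nuclear RNAs that cytosolic ribosomes do not carry were also measured, to show how far the pulldown depletes RNA outside ribosomes. Of 10 such RNAs tested, 6 were lower in the pulldown, beside 16.0% of all genes, and their log2 differences ran from -4.71 to -0.54 with a median of -2.14. The median of the mitochondrially encoded genes was -3.86, within that range, and the difference between the lists was not tested. In pulldowns without odour, mitochondrially encoded genes took 0.110% ± 0.0728 (SD, n = 5) of all counts, against 1.30% ± 0.127 in the inputs. Nuclear genes took 1.18% ± 0.0470 in the pulldowns and 0.927% ± 0.134 in the inputs.

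What remained of the mitochondrially encoded genes in the pulldowns differed widely between pools. Their share of all pulldown counts was 0.454% in BFD pool 1, 0.285% in BFD pool 4, 0.235% in no-odour pool 6, 0.223% in NCD pool 2, 0.194% in HFD pool 6 and 0.139% in NCD pool 4, and it lay between 0.0323% and 0.106% in the other 15 pools. BFD pool 1, the highest, also had the highest share of mitochondrial ribosomal RNA among pulldowns, 2.65%, and the highest share of the RNAs not carried by ribosomes, 0.903%. The shares did not always go together. BFD pool 4, the second highest, had 0.314% and 0.0908% of these. No-odour pool 2 had more of both, 0.373% and 0.104%, although its mitochondrially encoded genes took only 0.0881%. The median over genes of the SD between pools of log2 pulldown over input was 0.89 without odour, 1.06 for NCD, 1.51 for BFD and 0.77 for HFD in the mitochondrially encoded genes, against 0.29, 0.12, 0.31 and 0.29 in the nuclear genes. A change of the mitochondrially encoded genes in the pulldown would therefore have to be large to be detectable here.

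**Figure D2:**
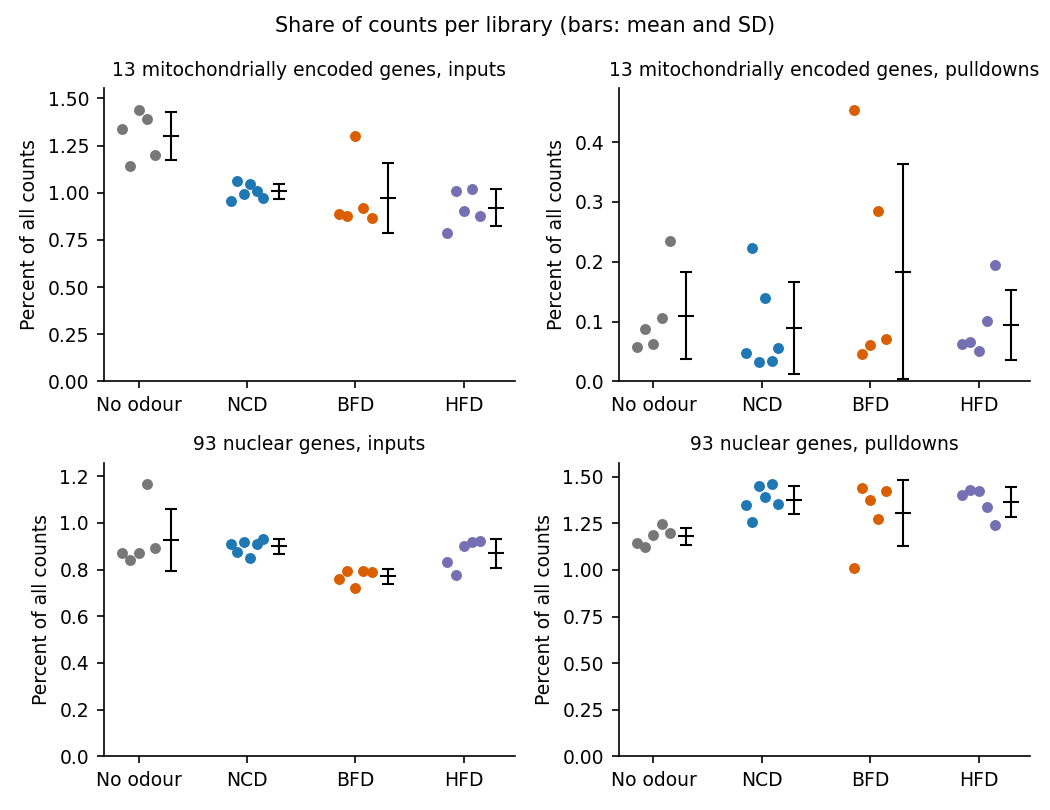
The 4 panels give, for inputs and pulldowns separately, the percent of all counts of a library that fell on the 13 mitochondrially encoded genes (upper row) or the 93 nuclear genes (lower row), by odour. Points are libraries and the black marks are the mean and SD of a group. In pulldowns the mitochondrial share is spread from 0.0323% to 0.454%, whereas the nuclear share stays between 1.01% and 1.46%.

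In the inputs, which are lysate RNA before capture, genes of both sets fell, most of them with BFD and few nuclear genes with NCD or HFD. Among the mitochondrially encoded genes, 4 fell with NCD, all 13 with BFD and 9 with HFD, and the medians were -0.59, -0.77 and -0.70. Among the 90 nuclear genes, 1 fell with NCD, 72 with BFD and 2 with HFD, and the medians were -0.48, -0.79 and -0.45. No member rose in any of these comparisons. Of all genes tested, 0.416% fell and 0.553% rose with NCD, 7.92% fell and 5.15% rose with BFD, and 0.317% fell and 0.619% rose with HFD. The 3 comparisons share the same 5 pools without odour, so they are not separate evidence of a direction.

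Few nuclear genes passed for NCD and HFD although their medians were lower. At an adjusted p of 0.05, 61 nuclear genes were lower with NCD, 84 with BFD and 54 with HFD, beside 11.1%, 19.8% and 9.78% of all genes. At an unadjusted p of 0.05, 73, 84 and 72 were lower, beside 17.7%, 23.3% and 16.9%. DESeq2 at 0.001 called 18, 77 and 15 lower, beside 2.79%, 11.3% and 2.75% of the genes it gave an adjusted p. With NCD the levels of 12 of 13 mitochondrially encoded and 33 of 90 nuclear genes were lower in every odour pool than in every pool without odour, beside 4.75% of all genes. The same held for 7 of 13 and 80 of 90 with BFD, beside 13.7%, and for 13 of 13 and 13 of 90 with HFD, beside 3.59%.

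In the inputs mt-Cytb had 1632, 1470, 1731, 1772 and 1344 CPM without odour and 888, 883, 1452, 1011 and 905 CPM in BFD pools 1 to 5. With NCD its lowest, median and highest values over 6 pools were 1087, 1162 and 1212 CPM, and with HFD pools 1, 2, 3, 5 and 6 had 895, 1227, 1069, 1115 and 1019 CPM. BFD pool 3 was the only odour pool within the range without odour. The fall with BFD was 0.63 ± 0.11 on the log2 scale (SE, adjusted p = 1.66e-04), and the differences with NCD, -0.46 ± 0.11 (adjusted p = 4.78e-03), and HFD, -0.58 ± 0.11 (adjusted p = 1.67e-03), did not pass.

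Sdhd, a membrane anchor of complex II, had the smallest p-value among nuclear genes in the BFD inputs. It had 114, 122, 114, 151 and 103 CPM in the inputs without odour and 70.9, 74.3, 65.6, 75 and 74.7 CPM in the BFD inputs, with no overlap. NCD inputs ran from 84.9 to 102 CPM with a median of 92.4, and HFD inputs had 88.2, 70.3, 89.2, 87.5 and 98.5 CPM, all below the pools without odour. Sdhd fell by 0.75 ± 0.09 with BFD (SE, adjusted p = 4.69e-06), and was at -0.38 ± 0.08 with NCD (adjusted p = 3.22e-03) and -0.48 ± 0.09 with HFD (adjusted p = 1.09e-03). Ndufv2, an iron-sulfur subunit of complex I, fell by 0.74 ± 0.09 with BFD (adjusted p = 4.69e-06) and by 0.54 ± 0.09 with HFD (adjusted p = 3.45e-04). Cox7a2l, grouped here with complex IV, fell by 0.73 ± 0.09 with BFD (adjusted p = 8.15e-06) and by 0.48 ± 0.09 with NCD (adjusted p = 8.58e-04), the only nuclear gene to fall with NCD. No nuclear gene fell with NCD without any single NCD pool, or without no-odour pool 1, 2, 3 or 4, BFD pool 1, 2 or 4, or HFD pool 1, 3 or 5. Besides Ndufv2, only Ndufs3, a core subunit of complex I, fell with HFD, by 0.59 ± 0.11 (adjusted p = 8.95e-04).

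The fall in BFD inputs covered every complex. It took 30 of 36 complex I subunits, 5 of 8 complex I assembly factors, 2 of 4 complex II subunits, 7 of 8 in complex III, 15 of 17 in complex IV and 13 of 17 in complex V. Some large catalytic subunits were among those that did not fall. Sdha, the flavoprotein of complex II, had 271, 253, 258, 244 and 250 CPM in inputs without odour and 230, 223, 218, 249 and 235 CPM in BFD inputs, a difference of -0.14 ± 0.05 (adjusted p = 0.0332). Ndufs1, the largest core subunit of complex I, was at -0.01 ± 0.06 (adjusted p = 0.958), and Atp5b, the catalytic beta subunit of ATP synthase, at -0.06 ± 0.08 (adjusted p = 0.631).

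Some small accessory subunits gave larger differences. Ndufs6, a zinc-binding subunit of complex I, had 92.9, 102, 103, 163 and 85.3 CPM in inputs without odour and 48.5, 53.7, 53.5, 57.3 and 57.9 CPM in BFD inputs, and fell by 1.01 ± 0.13 (adjusted p = 2.71e-05). Uqcrq of complex III had 96.0, 108, 100.0, 157 and 87.4 CPM without odour and 49.0, 47.7, 30.3, 51 and 57.3 CPM with BFD, and fell by 1.22 ± 0.25 (adjusted p = 8.77e-04). Cox5b of complex IV fell by 1.22 ± 0.19 (adjusted p = 1.18e-04). In each of these, no BFD input reached the lowest input without odour, and no-odour pool 4 was the highest of its group.

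The ribosomal RNA share moved with these results, and so did other parts of the RNA. The RNAs not carried by cytosolic ribosomes took 0.449% to 0.981% of input counts without odour, 0.879% to 1.20% with NCD, 1.11% to 1.54% with BFD and 0.786% to 1.40% with HFD, so that only the BFD inputs did not overlap with those without odour. They were lowest in no-odour pool 4, where the nuclear share was highest. In the model, 1 of the 10 rose and 1 fell in BFD inputs, with a median of 0.04. Their part in the fall was not tested. Once the model held the ribosomal RNA share as a covariate, 0 mitochondrially encoded and 0 nuclear genes fell in NCD or BFD inputs, and 2 and 0 fell in HFD inputs. That share did not overlap between inputs without odour and NCD or BFD inputs. The model therefore cannot separate the share from these odours, and the loss of calls does not show which of them goes with the fall. Without BFD pool 3 the nuclear count for BFD was 40, and without BFD pool 1 it was 45, in place of 72. Without no-odour pool 6, 10 mitochondrially encoded and 9 nuclear genes fell with NCD, and 9 nuclear genes with HFD. The mitochondrially encoded count for NCD was also 10 without BFD pool 3 and was 2 without any single NCD pool or any other no-odour pool, and that for HFD was 3 to 5 without no-odour pool 1, 3 or 4 or HFD pool 1 or 3.

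**Figure D3:**
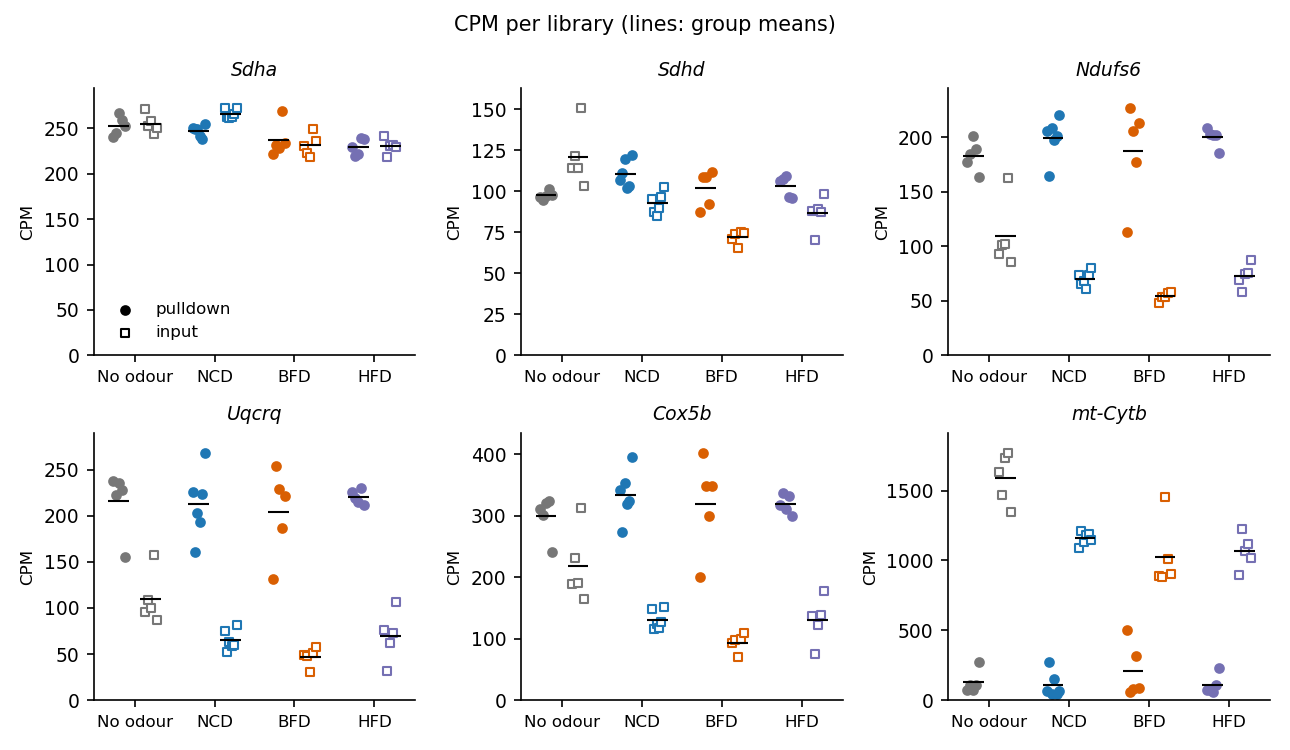
CPM of 6 genes in every library by odour, with filled circles for pulldowns, open squares for inputs and black lines for group means. Sdha inputs stay between 218 and 272 CPM, whereas the BFD inputs of Sdhd, Ndufs6, Uqcrq and Cox5b lie below all their inputs without odour. mt-Cytb inputs lie above all mt-Cytb pulldowns.

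Relative to the input of the same pool, 33 of the 90 nuclear genes rose in the pulldown with BFD and none did with NCD or HFD, while no mitochondrially encoded gene passed with any odour. The median change of log2 pulldown over input in the 90 nuclear genes was 0.55 with NCD, 0.81 with BFD and 0.54 with HFD. At the 0.001 threshold 0 rose with NCD, 33 with BFD and 0 with HFD, and none fell. Of all genes tested 0.359% rose and 0.165% fell with NCD, 2.47% rose and 1.32% fell with BFD, and 0.699% rose and 0.520% fell with HFD. At an adjusted p of 0.05 the nuclear counts were 59, 80 and 52, beside 6.79%, 12% and 7.67% of all genes higher. At an unadjusted p of 0.05 they were 74, 82 and 73, beside 13.9%, 17.2% and 14.4%. DESeq2 at 0.001 called 25, 68 and 21, beside 1.90%, 6.40% and 2.65% of the genes it gave an adjusted p. In every odour pool the ratio was above every pool without odour for 62 of 90 nuclear genes with NCD, 60 with BFD and 24 with HFD, beside 5.73%, 6.45% and 5.04% of all genes.

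The mitochondrially encoded genes had median changes of 0.03 with NCD, 1.06 with BFD and 0.37 with HFD, and 0 of 13 passed with edgeR or DESeq2. These medians rested on single pools. The NCD median ran from -0.29 without NCD pool 2 to 0.44 without no-odour pool 6, the BFD median from 0.50 without BFD pool 1 to 1.46 without BFD pool 3, and the HFD median from 0.02 without HFD pool 6 to 0.75 without no-odour pool 6. At an unadjusted p of 0.05 the counts were 0, 1 and 0, and none of the 13 was free of overlap with the pools without odour. For mt-Cytb, log2 pulldown over input was -4.52, -3.75, -4.55, -4.01 and -2.29 without odour and -0.82, -3.96, -4.21, -1.69 and -3.41 in BFD pools 1 to 5. BFD pools 1 and 4 were above the group without odour and the other 3 were inside its range. The change of 0.99 ± 0.72 (SE, adjusted p = 0.372) was not detectable against this spread.

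By complex, 16 of 36 complex I subunits rose with BFD, as did 10 of 17 in complex IV, 4 of 17 in complex V, 1 of 8 in complex III and 1 of 4 in complex II, and 1 of the 8 complex I assembly factors. Sdhd had the smallest p-value, with log2 pulldown over input of -0.24, -0.36, -0.23, -0.57 and -0.08 without odour and 0.30, 0.55, 0.73, 0.30 and 0.59 with BFD. The groups did not overlap, and the change was 0.79 ± 0.11 (adjusted p = 5.90e-05). Ndufa13, an accessory subunit of complex I, rose by 0.90 ± 0.13 (adjusted p = 8.44e-05), and Ndufc1, a small membrane subunit of the same complex, by 1.04 ± 0.15 (adjusted p = 9.36e-05).

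The changes of the same accessory subunits were also large on this scale. Ndufs6 rose by 0.97 ± 0.15 with BFD (adjusted p = 1.92e-04), from 0.93, 0.86, 0.97, 0.21 and 0.94 without odour to 1.22, 2.08, 1.94, 1.63 and 1.88. Cox5b rose by 1.26 ± 0.22 (adjusted p = 5.39e-04). Atp5mpl, a small proteolipid of the ATP synthase, rose by 1.23 ± 0.23 (adjusted p = 9.07e-04), and Uqcrq, at 1.12 ± 0.28 (adjusted p = 6.65e-03), did not pass. Sdha was at 0.04 ± 0.07 (adjusted p = 0.712), Ndufs1 at -0.02 ± 0.08 (adjusted p = 0.880) and Atp5b at 0.20 ± 0.08 (adjusted p = 0.0934). The count of 33 depended on single pools. It was 60 without BFD pool 1, 53 without HFD pool 2, 8 to 15 without any other BFD pool and 20 or 21 without no-odour pool 1, 2, 3 or 4. It was 0 when only the pools without odour and with BFD entered the model.

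A ratio can rise because the pulldown gains or because the input loses, so the pulldown libraries were also compared with each other. In them 0 nuclear genes rose or fell with NCD, 0 with BFD, and with HFD 1 rose and 1 fell, with medians of 0.13, 0.06 and 0.10. Of all genes tested, 2.10% rose and 1.60% fell with NCD, 2.11% and 1.66% with BFD, and 2.97% and 1.66% with HFD. At an unadjusted p of 0.05, 23 nuclear genes were higher and 2 lower with NCD, 10 and 3 with BFD, and 20 and 6 with HFD. Of all genes, 15.9% were higher and 14.8% lower at that level with NCD, 15.9% and 13.9% with BFD, and 16.8% and 15.1% with HFD. The 2 genes that passed with HFD were Ndufb2, an accessory subunit of complex I, which rose by 0.33 ± 0.06 (adjusted p = 7.04e-04), and Atp5a1, the alpha subunit of ATP synthase, which fell by 0.30 ± 0.05 (adjusted p = 3.30e-04). For the mitochondrially encoded genes the medians were -0.36, 0.71 and -0.25, with 0 of 13 passing in each and 0 at an unadjusted p of 0.05.

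Sdhd shows the pattern in single libraries. Its pulldowns had 96.7, 94.7, 97.5, 101 and 97.7 CPM without odour and 87.6, 109, 109, 92.3 and 112 CPM with BFD, and these overlapped, whereas its inputs did not. The difference of Sdhd between the pulldowns was 0.07 ± 0.06 (adjusted p = 0.497), beside -0.75 ± 0.09 between the inputs.

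Which of the libraries appeared to move depended on the scale. As a percent of all counts, nuclear genes took 1.18% of pulldowns without odour and 1.38%, 1.31% and 1.37% with NCD, BFD and HFD, and 0.927% of inputs without odour and 0.899%, 0.772% and 0.870% with the odours. As a percent of counts other than ribosomal RNA, they took 1.55% of pulldowns without odour and 1.61%, 1.53% and 1.58% with the odours, and 1.30% of inputs without odour and 1.07%, 0.875% and 1.03% with them. The inputs differed more from those without odour on the latter scale, as they did in the CPM values above. The mitochondrially encoded genes took 1.30% of all input counts without odour and 1.01%, 0.971% and 0.921% with the odours, and 1.82% of input counts other than ribosomal RNA without odour and 1.20%, 1.10% and 1.09% with them, so their lower level in inputs held on both scales.

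**Figure D4:**
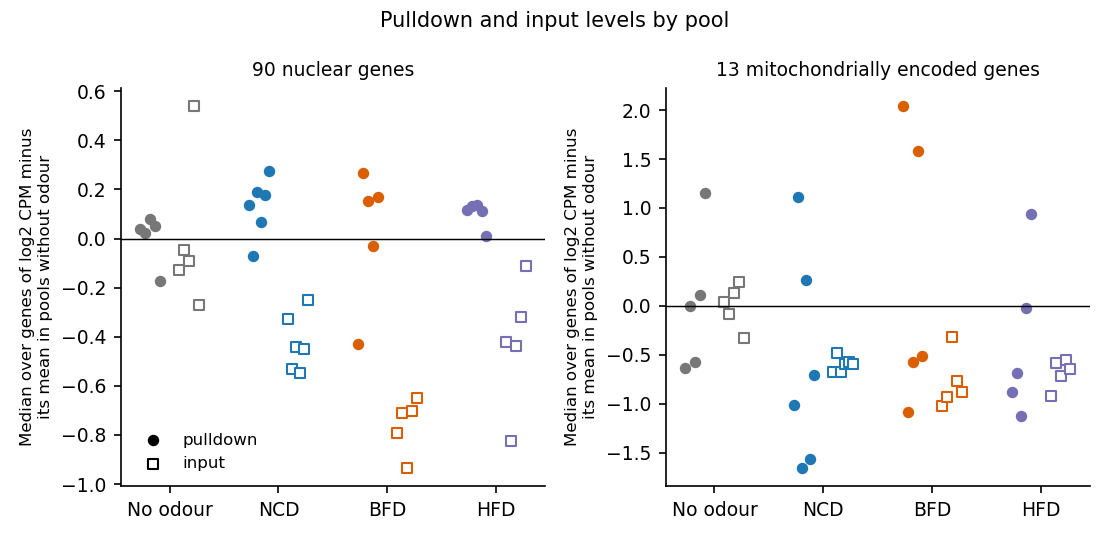
For each pool, the median over genes of log2 CPM minus the gene's mean in the 5 pools without odour, with filled circles for pulldowns and open squares for inputs, for the 90 nuclear genes (left) and the 13 mitochondrially encoded genes (right). Nuclear inputs with BFD lie between -0.93 and -0.65 while the nuclear pulldowns with BFD lie between -0.43 and 0.27, and mitochondrial pulldowns with BFD are spread from -1.08 to 2.04.

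The odours were also compared with each other. Against NCD, BFD pools had 0 members that passed in pulldown over input or in inputs, and against HFD likewise 0. The median difference of nuclear genes was 0.23 against NCD and 0.24 against HFD in pulldown over input, and -0.33 and -0.35 in inputs. In inputs 71 nuclear genes were lower with BFD than with NCD at an unadjusted p of 0.05, beside 12% of all genes, and 8 at an adjusted p of 0.05, beside 1.01%. Against HFD these counts were 68, beside 10.4%, and 0, beside 0.217%. In pulldown over input, 15 were higher than with NCD and 17 than with HFD at an unadjusted p of 0.05, beside 3.69% and 4.52%. At the 0.001 threshold, of all genes 0.00945% were higher and 0% lower with BFD than with NCD in pulldown over input, 0.0378% and 0% against HFD, 0.0661% and 0.0378% against NCD in inputs, and 0.0378% and 0.0425% against HFD in inputs. That 72 nuclear genes fell with BFD, against 1 with NCD and 2 with HFD, therefore did not amount to a difference between the odours that passed 0.001.

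Transcript length moved with these results. The 90 nuclear genes tested had a median length of 863 bases, from 360 to 3632, against 2803 bases over all 16798 protein-coding genes tested. In the BFD inputs, the 54 nuclear genes of up to 1000 bases had a median of -0.95 and 50 fell, whereas the 36 longer ones had a median of -0.47 and 22 fell. The 1132 other protein-coding genes of up to 1000 bases had a median of -0.56, and the 15563 longer ones 0.01. Over the 90 nuclear genes, Spearman's rho between length and the BFD difference in inputs was 0.78, and it was 0.77 for NCD and 0.62 for HFD. These genes were measured in the same libraries, so rho is given as a description.

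The other scales followed length in the same way. For the BFD change of pulldown over input the medians were 0.97 for the shorter and 0.50 for the longer nuclear genes, beside 0.50 and -0.05 in the other protein-coding genes, with a rho of -0.72. Without odour, pulldown over input had medians of 0.52 and 0.04, beside 0.33 and 0.02, with a rho of -0.60. In either class the median of nuclear respiratory chain genes was further from 0 than that of other protein-coding genes, and the difference was not tested. Length was not matched within a class, since the nuclear genes reached 3632 bases and all protein-coding genes tested 123179. The part that transcript length has in the fall of nuclear genes in inputs was not tested.

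**Figure D5:**
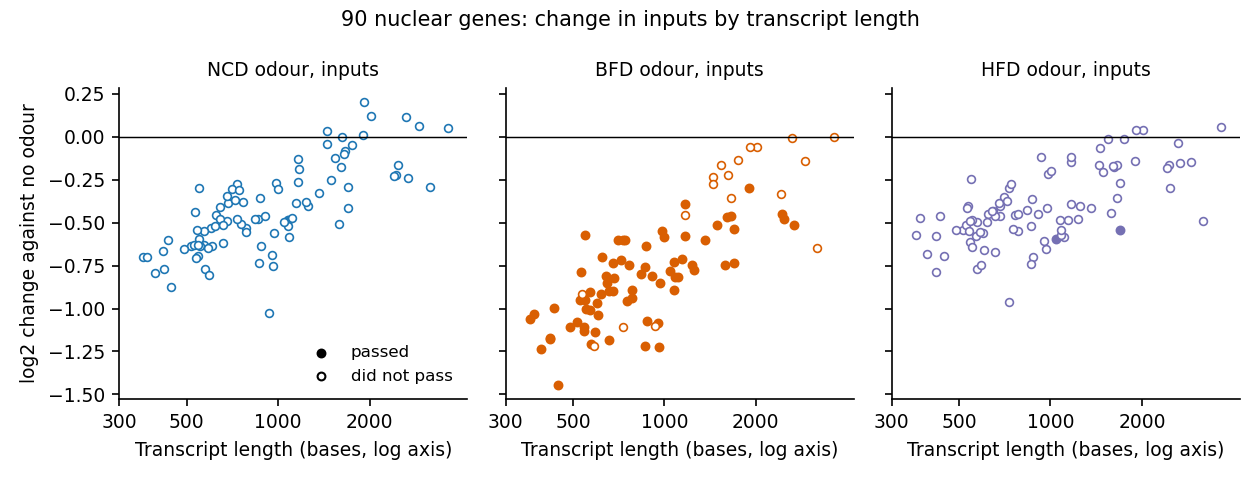
Each point is 1 of the 90 nuclear genes tested, with transcript length in bases on a log axis and the log2 change of the inputs against no odour on the vertical axis, in 1 panel per odour. Filled points passed an adjusted p of 0.001. Shorter transcripts lie lower in all 3 panels, with a Spearman's rho of 0.77, 0.78 and 0.62 for NCD, BFD and HFD.

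Other genes of mitochondria and metabolism showed how far the pattern reached. In BFD inputs, where 7.92% of all genes fell, 42 of 78 proteins of the mitochondrial ribosome fell with a median of -0.51, as did 10 of 24 genes of protein import into mitochondria with a median of -0.50. Among 28 assembly factors outside the naming rule, 7 fell with a median of -0.28. Of the 13 enzymes of the citric acid cycle 3 fell, with a median of -0.12, and of 16 glycolytic enzymes 4 fell, with a median of -0.26. Genes that keep and copy mitochondrial DNA and RNA had 3 of 16 lower and 1 higher with a median of -0.01, and the 7 regulators of mitochondrial biogenesis 1 higher and 1 lower with a median of 0.21. The fall was not limited to mitochondria, since 61 of 92 proteins of the cytosolic ribosome also fell and 2 rose, with a median of -0.65.

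In the BFD change of pulldown over input, where 2.47% of all genes rose, 17 of 78 mitochondrial ribosome genes rose with a median of 0.54, 4 of 24 import genes with a median of 0.47, 2 of 28 assembly factors with a median of 0.28 and 4 of 92 cytosolic ribosomal proteins with a median of 0.45. No citric acid cycle gene passed and the median was 0.10. In glycolysis 1 of 16 rose with a median of 0.12, in the upkeep of mitochondrial DNA and RNA 1 of 16 rose with a median of 0.05, and no biogenesis regulator passed, with a median of -0.19.

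Without odour, 19.8% of all genes were higher in the pulldown and 16.0% lower, and the counts of the lists are to be read against these shares. Pulldown over input was higher for 10 and lower for 0 of the 24 import genes, with a median of 0.40, and higher for 19 and lower for 6 of the mitochondrial ribosome genes, with a median of 0.13. It was higher for 10 and lower for 2 of the assembly factors, with a median of 0.18, and higher for 14 and lower for 3 of the cytosolic ribosomal proteins, with a median of 0.20. For the citric acid cycle 0 were higher and 3 lower with a median of -0.22, for glycolysis 1 and 4 with a median of -0.13, for upkeep 3 and 1 with a median of 0.01, and for biogenesis 3 and 1 with a median of 0.08.

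The pulldown also differed from the input in its cell types. Without odour, 4 of 8 markers of mature sensory neurons and 3 of 4 of immature neurons were higher in the pulldown, with medians of 0.28 and 0.60. All 5 markers of supporting cells and all 3 of basal cells were lower, with medians of -1.83 and -2.29, and of the gland markers 1 was higher and 3 lower, with a median of -0.79. Markers of erythroid cells (5 of 5, median 2.11), neutrophils (3 of 4, median 1.67), macrophages (4 of 4, median 1.25) and ciliated cells (2 of 4, median 0.69) were higher, and those of pericytes and endothelium had 1 higher and 3 lower with a median of -0.89. The part of cell types in the values of respiratory chain genes was not tested. In BFD inputs, where 72 nuclear genes fell, none of the markers of supporting, basal, ciliated, erythroid or neutrophil cells passed, nor did those of pericytes and endothelium. Of the markers of mature sensory neurons 2 of 8 fell, with a median of 0.07, of immature neurons 2 of 4, with a median of -0.34, of macrophages 1 of 4, with a median of -0.57, and of the gland 1 of 4, with a median of 0.14. As a summed share of all counts, the gland markers took 0.600% to 1.25% of inputs without odour, 0.831% to 0.900% with NCD, 1.39% to 1.62% with BFD and 1.05% to 1.19% with HFD, and the BFD inputs were above all others. Markers of mature sensory neurons took 1.28% to 1.66% without odour, 1.72% to 1.94% with NCD, 1.70% to 1.88% with BFD and 1.55% to 2.01% with HFD. For these markers neither the NCD nor the BFD inputs overlapped with those without odour. The gland and neuron values are shares of all counts. Ribosomal RNA of both genomes took 21.7% to 32.2% of inputs without odour and 10.6% to 14.5% with BFD, and a lower share of it raises all others. Shares of counts other than ribosomal RNA were not computed for these markers, so these values alone show no shift of cell types. The part of these cell types in the fall was not tested.

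Some complex IV subunits have forms that differ between tissues, and the widespread forms dominated here. In inputs without odour, Cox4i1 had 257 ± 61.7 CPM per kilobase (SD, n = 5) and Cox4i2, the form of lung and oxygen sensing, 1.19 ± 0.467. Cox6a1 had 595 and its heart and muscle form Cox6a2 0.162, and Cox6b1 had 188 and its testis form Cox6b2 4.48. Ndufa4, now counted as a subunit of complex IV, had 525.9 and its hypoxia-induced relative Ndufa4l2 0.678. Cox7b2 and Cox8c, known from testis, were listed at 0 in all inputs without odour.

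The muscle forms Cox7a1 and Cox8b were less rare. Cox7a1 had 10.2 CPM per kilobase against 99.9 for Cox7a2, and Cox8b had 52.5 against 308 for Cox8a. Of 7 markers of skeletal muscle 3 could be tested, and none passed in pulldown over input without odour. Cox7a1 was 0.89 ± 0.17 higher in the pulldown than in the input without odour (SE, adjusted p = 7.32e-05), and Cox8a was 0.84 ± 0.16 higher (adjusted p = 1.11e-04).

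Widespread and muscle forms both fell in BFD inputs. Cox7a1 had 4.03, 3.83, 3.22, 6.07 and 2.97 CPM in inputs without odour and 2.18, 1.59, 1.48, 1.47 and 1.81 CPM with BFD, and fell by 1.23 ± 0.20 on the log2 scale (adjusted p = 7.76e-05). Cox7a2 fell by 0.90 ± 0.15 (adjusted p = 1.89e-04). Cox8b had 15.5, 15.4, 18.9, 30.3 and 14.3 CPM without odour and 9.79, 8.68, 6.88, 9.18 and 10.7 CPM with BFD, and fell by 1.06 ± 0.21 (adjusted p = 5.96e-04), beside 0.95 ± 0.18 for Cox8a (adjusted p = 3.74e-04). For Cox7a1 and Cox8b no BFD input reached the lowest input without odour. Cox6b2 fell by 1.01 ± 0.19 (adjusted p = 2.37e-04) beside 0.92 ± 0.16 for Cox6b1 (adjusted p = 2.58e-04), while in pulldown over input Cox6b1 rose by 0.90 ± 0.17 (adjusted p = 9.18e-04) and Cox6b2, at 0.20 ± 0.24 (adjusted p = 0.609), did not pass. Whether the 2 forms differ from each other was not tested.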

How the data were processed

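Each pool was lysed, phosphorylated S6 was immunoprecipitated, and RNA of the pulldown and of the input was amplified (Ovation V2) and made into Nextera XT libraries. The authors deposited estimated counts per gene for the 42 libraries, made in an nf-core pipeline. The submitters' processing notes name Salmon, DESeq2 1.26 and the GRCm38 build. The annotation release was not given in the sources used here, and GENCODE M21 supplied names, biotypes and positions, with 44118 of 44674 identifiers matched. Libraries were grouped by the labels. Of the deposited expected counts, 30.9% were not whole, and all were rounded.

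The counts were tested with edgeR 4.0.16 (R 4.3.3), using TMM scaling and the quasi-likelihood test with robust estimation, over 21168 genes passing filterByExpr with a minimum count of 10. The SE of a log2 difference is its absolute size divided by the square root of its F statistic. Pulldown and input were compared in 1 model over all 42 libraries, with a term for each pool and a pulldown term for each odour. The inputs were compared in a model over the 21 inputs. The threshold was the adjusted p of 0.001 that the authors used. A change of pulldown over input is the difference between the log2 ratios with and without odour. CPM was computed on TMM-scaled library sizes.

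The pulldown and input of a pool share the same tissue, which is why the pool is a term in the model, although their deviations from the group means correlated with a median r of only 0.01 over 21 pools. Nothing in the labels says that a replicate number is shared between odours, and libraries of 1 number in different odours did not deviate together, with median r of 0.01 in pulldowns and 0.02 in inputs. Gene length was that of the principal APPRIS transcript. The models were tested on simulated counts for 21168 genes. For the NCD change of pulldown over input they recovered 60 of 100 genes changed 2-fold and 91 of 100 changed 4-fold with 1 wrong call, and for the HFD inputs 73 and 99 of 100 with 1 wrong call. The simulated counts had the same dispersion for every gene and held no pool effects or outlying pools. These rates therefore do not apply to the mitochondrially encoded genes, which differed widely between pulldowns, and can be too favourable for other genes.

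Members and gene lists were chosen with earlier results of these data known. Genes were named by role (mitochondrially encoded genes, core and catalytic subunits, isoform partners), by the 3 smallest p-values in each direction, or by the highest and lowest difference without odour. Ndufs6, Uqcrq, Cox5b, Atp5mpl and Atp5a1 in the pulldowns alone were shown after their values were seen. Alternatives were another normalization, filter, test, threshold, set of terms or set of groups, a ribosomal RNA covariate, added counts of nuclear copies, and each pool left out. The pulldowns alone and BFD against the other odours were compared after the data were seen.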

Additional observations from a re-analysis of the deposited data

Results flagged for a closer look

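Of 96 groups of values examined, 5 held 1 pool that stood far from the others of its group, and chance gives about 1 in 20. The mitochondrially encoded genes took 0.235% of the counts in the pulldown of no-odour pool 6, against 0.0568% to 0.106% in the other 4. In inputs they took 1.30% in BFD pool 3, against 0.867% to 0.920% in the other BFD pools. The other 3 all concerned no-odour pool 4. Nuclear genes took 1.16% of its input counts, against 0.840% to 0.890% in the other pools. Their median log2 pulldown over input was -0.15 there, against 0.34 to 0.51. For Ndufs6 this ratio was 0.21, against 0.86 to 0.97. BFD pool 3, no-odour pool 4 and no-odour pool 6 were each left out in turn, and the counts of members without them lie in the ranges given below.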

How the results depend on the processing

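Among the named genes, none that passed the threshold in the main model changed direction under any alternative, with 0 reversed of 11592 values. These values include genes that had not passed in the main model, and those could not count as reversed. Members that were not named were not checked in this way. The counts of members passing did move. Without odour, the lower mitochondrially encoded genes went from 13 to 1 with the ribosomal RNA covariate, and to 12 to 13 without single pools. The higher nuclear genes went from 28 to 46 at an adjusted p of 0.05, to 5 with the covariate, and to 17 to 38 without single pools. In every pool without odour the covariate was higher in the pulldown than in the input. The model can therefore hardly separate it from the pulldown. The 1 lower nuclear gene became 11 at 0.05, 2 with DESeq2 size factors or without the filter, 5 with DESeq2, 0 with only the pools without odour, and 1 to 2 without single pools.

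For pulldown over input, the nuclear genes that rose with NCD went from 0 to 59 at 0.05, 1 without the filter, 25 with DESeq2, 12 with only the groups compared, and 0 to 8 without single pools. Those with BFD went from 33 to 80 at 0.05, 68 with DESeq2, 0 with only the groups compared, 21 with the covariate, 0 in the pulldowns alone, and 8 to 60 without single pools. Those with HFD went from 0 to 52 at 0.05, 2 without the filter, 21 with DESeq2, 1 higher and 1 lower in the pulldowns alone, and 0 to 5 without single pools. With no replicate block (no term for the pool), the counts for NCD and HFD were 1 each, and a replicate block by the number of the labels left the 3 counts within 1.5 times.

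In inputs, the 4 mitochondrially encoded genes that fell with NCD became 13 at 0.05 or with DESeq2, 2 with a replicate block by the number of the labels, 0 with the covariate, 7 with the copies added, and 2 to 10 without single pools. The 13 with BFD became 6 with only the groups compared, 0 with the covariate, and 12 to 13 without single pools, and the 9 with HFD became 1 with the block, 0 with only the groups compared, 2 with the covariate, and 3 to 13 without single pools. The 1 nuclear gene that fell with NCD became 61 at 0.05, 2 without the filter, 18 with DESeq2, 0 with the block, the groups compared alone or the covariate, and 0 to 9 without single pools. The 72 with BFD became 47 with the block, 38 with only the groups compared, 0 with the covariate, and 40 to 74 without single pools. The 2 with HFD became 54 at 0.05, 4 without the filter, 15 with DESeq2, 0 with the block, the groups compared alone or the covariate, and 0 to 9 without single pools. Nothing in the labels says whether a replicate number is shared between odours, so the losses under the block cannot be interpreted here. The ribosomal RNA share did not overlap between inputs without odour and NCD or BFD inputs, so the covariate cannot be separated from those odours. Beyond the terms and samples each setting names, the cause of these moves was not tested.

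The mitochondrial share of inputs, as a percent of counts other than ribosomal RNA, was 1.82% without odour, 1.20% with NCD and 1.09% with HFD, and the nuclear share was 1.55%, 1.61%, 1.53% and 1.58% of pulldowns and 1.30%, 1.07%, 0.875% and 1.03% of inputs (no odour, NCD, BFD and HFD). The spread of the mitochondrially encoded genes between pulldowns limits which changes could be detected.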
